A study of Arabidopsis thaliana with 16 samples.

Results

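PDF1.2 (AT5G44420), THI2.1 (AT1G72260) and JRG21 (AT3G55970) are 3 genes of Arabidopsis thaliana that jasmonate, a wound and defence hormone, is known to switch on. Each was measured by the 1 probe set annotated to its locus, so that they take up 3 of the 22746 probe sets for genes in the deposited table. All 3 passed the filter on dim values, a log2 level of at least 4 on at least 3 arrays, which kept 13701 probe sets.

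The 16 samples were whole seedlings of the Col-0 background, each hybridised to 1 Affymetrix array. In the 12 amiR-tor samples an estradiol-inducible artificial microRNA aimed at TOR, a kinase that couples growth to nutrients, could be switched on; in the 4 controls the same inducible vector, pER8, was empty. Seedlings of 2 weeks, raised on hygromycin in continuous light, were moved to medium with 20 µM estradiol or without it and were harvested after 3 or 6 days. There were induced and non-induced amiR-tor arrays at each day, 3 in each group and 1 for each of lines 9, 17 and 20, and 1 induced and 1 non-induced empty-vector array at each day. The groups follow the sample titles, although the series title names another gene and every description mentions an empty vector. The labels name no separate cultures or plants behind the arrays of a group, and the p-values therefore rest on the spread between lines, part of which may be technical. Tests over both days count the 3 and 6 day arrays of a line as independent, although they come from the same 3 lines. No probe set was listed for TOR, so the degree of silencing was not analysed here. Of the tissue markers looked up, the leaf markers LHCB4.1, LHCB4.2 and RCA read at least 13.18 (log2) on every array and the root marker PYK10 read 13.08 to 13.70. These were the only listed probe sets among 6 leaf and 6 root markers, and 0 of 6 flower and 0 of 3 seed markers had one.

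Jasmonate is made from fatty acids of the chloroplast. Joined to isoleucine it is bound by the receptor COI1 together with JAZ repressors, whose destruction frees transcription factors such as MYC2, and a branch shared with ethylene works through factors of the ERF family. PDF1.2 encodes a secreted plant defensin, a small antifungal peptide rich in cysteine, and is the usual marker of the ethylene-linked branch. THI2.1 encodes a thionin, another small antimicrobial peptide, whose transcript in seedlings is known to respond to methyl jasmonate. JRG21, for jasmonate-regulated gene 21, encodes an oxygenase also called JOX3, one of a small family that hydroxylates jasmonate and so inactivates it; it is both a target of the hormone and a part of its removal.

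None of the 3 genes passed the threshold of a limma Benjamini-Hochberg adjusted p under 0.05 in any comparison, and their patterns differed. JRG21 came nearest: over both days it was 1.36 ± 0.36 (SE) log2 units higher with induction (limma adjusted p = 0.067). At 6 days its 3 induced line arrays all lay above its 3 non-induced ones, as for 11.0% of all probe sets. THI2.1 and PDF1.2 scattered widely between lines, with values of 1.2 ± 0.95 and 0.80 ± 0.67 (SE; limma adjusted p = 0.429 and 0.452). With 1 line left out these ran from 0.37 (without line 9) to 2.39 (without line 20) for THI2.1 and from 0.23 (without line 9) to 1.27 (without line 17) for PDF1.2, and with the kind of array as a covariate THI2.1 differed by 0.32. In the empty vector all 3 genes were lower with estradiol at both days, with differences of -0.10 to -2.12 log2 units.

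**Figure D1:**
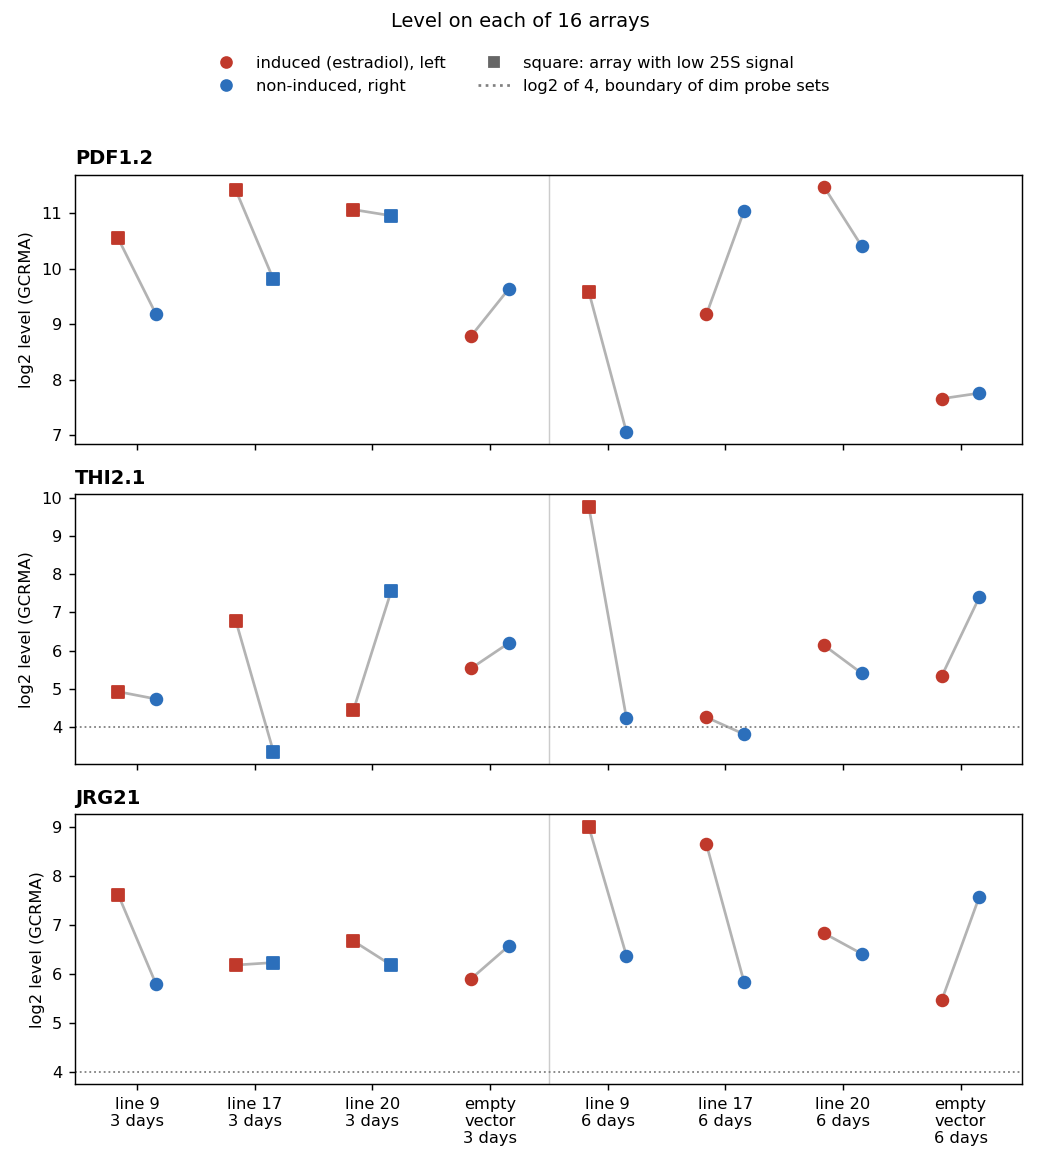
GCRMA log2 level (vertical axis) of PDF1.2, THI2.1 and JRG21 on each of the 16 arrays, by line and day (horizontal axis); red points are induced arrays, blue points their non-induced partners, squares mark the 6 arrays with low 25S signal, and the dotted line in the THI2.1 and JRG21 panels is the log2 value of 4. The 3 induced JRG21 arrays of the lines at 6 days, at 6.83 to 9.01, sit above the non-induced ones at 5.83 to 6.41, while PDF1.2 and THI2.1 overlap.

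The arrays were of 2 kinds. On 6 of them the control probe set for 25S ribosomal RNA read 5.27 to 6.66 (log2) and the 5′ minus 3′ actin control difference was -10.39 to -4.47, whereas the other 10 had 11.38 to 11.99 and -1.92 to -1.43. The low kind comprised line 9 with inducer at either day, and lines 17 and 20 at 3 days with and without it. At 6 days lines 17 and 20 were of the high kind, so in these lines day and kind of array cannot be told apart. In line 9, induction and kind of array cannot be told apart; the other pairs each lie within 1 kind. A fit to arrays of 1 kind therefore keeps line 9 at a given day in 1 state only, without its partner. Within the low kind the actin difference of line 17 at 3 days was -8.58 with inducer and -4.47 without. The part of this RNA measure in the results was not tested.

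PDF1.2 was a bright probe set on every array, and its differences with induction were uneven. At 3 days its log2 level was 10.55, 11.42 and 11.07 in induced lines 9, 17 and 20, against 9.19, 9.81 and 10.96 without inducer. Each line was thus higher with inducer, by 1.36, 1.61 and 0.11, but the groups overlapped because non-induced line 20 lay above induced line 9. At 6 days the induced lines had 9.59, 9.18 and 11.48, against 7.06, 11.05 and 10.41 in the non-induced lines. Line 17 went the other way from lines 9 and 20, with a difference of -1.87 against 2.53 and 1.07.

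Averaged over lines, PDF1.2 differed by 1.03 ± 0.94 at 3 days and by 0.58 ± 0.94 at 6 days (SE; limma adjusted p = 0.613 and 0.799). At 3 days 0% of all probe sets passed (13.0% had an unadjusted limma p under 0.05). At 6 days 0.460% passed, 0.394% upward and 0.0657% downward. Over both days PDF1.2 differed by 0.80, with a 95% interval of -0.67 to 2.27. Without line 9 the 6 day difference was -0.40. The median PDF1.2 level was 10.76 on the 6 arrays of the low kind and 9.18 on the 10 of the high kind. Within the high kind the 6 day difference was 0.82 ± 1.4 (SE), which counts non-induced line 9 (7.06) without its induced partner. In lines 17 and 20, whose 6 day pairs lie within that kind, the differences were -1.87 and 1.07.

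In the empty vector PDF1.2 read 8.79 with estradiol and 9.64 without it at 3 days, and 7.66 with and 7.76 without it at 6 days. The differences with estradiol in the empty vector were -0.85 and -0.10, each from a single pair with no test of its own. Between days the empty-vector arrays differed by -1.13 with inducer and -1.88 without it (6 minus 3 days). Line 9 had the same direction, with differences of -0.96 with inducer and -2.13 without, whereas line 17 differed by -2.24 and 1.24 and line 20 by 0.41 and -0.55. For lines 17 and 20 the days also differ in kind of array. The order of the PDF1.2 group means began with the induced lines at 3 days (11.01 ± 0.44, SD, n = 3), followed by the induced lines at 6 days (10.08 ± 1.2, SD, n = 3), the non-induced lines at 3 days (9.99 ± 0.90), the non-induced empty vector at 3 days (9.64) and the non-induced lines at 6 days (9.51 ± 2.1). The other empty-vector arrays were the lowest. Neighbours that include a group of lines differed by less than the larger SD.

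The gene most like PDF1.2 across the 16 arrays was its close relative PDF1.2b (AT2G26020), first of 13700 other probe sets with Pearson's r = 0.956 (Spearman's rho 0.959). On the 10 arrays of high 25S signal it was again first, with r = 0.948. The x_at suffix of its probe set marks probes that can match several transcripts, so cross-hybridisation between the defensin genes and a shared pattern cannot be told apart. Like PDF1.2, PDF1.2b was lower with inducer in line 17 at 6 days (11.06 with, 12.79 without), and in the empty vector it read 10.48 with and 10.99 without estradiol at 3 days and 9.44 with and 10.40 without at 6 days. Next among named genes came BGLU40 (r = 0.807), of the beta-glucosidase family, and UBC18 (r = 0.802), of the ubiquitin-conjugating enzymes. Over the 8 pair differences the plastid genes psbA and petB stood ahead of PDF1.2b, at r = 0.952 and 0.946 against 0.938. These correlations are descriptions without a test, and their points share lines and kinds of array.

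THI2.1 had pair differences in both directions, spread more widely than those of PDF1.2. At 3 days its log2 level was 4.93, 6.78 and 4.45 in induced lines 9, 17 and 20, against 4.74, 3.36 and 7.55 in the same lines without inducer. Line 17 was 3.42 log2 units higher with inducer, against a partner under the dim boundary of 4, and line 20 was 3.10 lower, 8.57-fold, and both pairs lie within the low kind of array. At 6 days the induced lines had 9.76, 4.26 and 6.14, against 4.24, 3.82 and 5.41 in the non-induced lines. All 3 were higher at that day, but by 5.52 in line 9 and only 0.44 and 0.73 in lines 17 and 20, and the groups overlapped.

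The line 9 array with inducer at 6 days carried the highest THI2.1 level of all 16, 45.9-fold above its partner, and it is also an array of the low kind whose partner is not. Both non-induced levels of line 17 (3.36 and 3.82) lay under the dim boundary of 4, nearer to the floor of 2.12, where differences are compressed. The SD of the 6 pair differences was 2.96, the 11th largest of the 13701 probe sets, whose median SD was 0.37. PDF1.2 had an SD of 1.53 and JRG21 of 1.23, and 5.16% of probe sets reached at least 1. The mean difference of THI2.1 was 0.17 ± 1.3 at 3 days, and 2.23 ± 1.3 at 6 days (SE; limma adjusted p = 0.964 and 0.471). Without line 17 the 3 day value was -1.46, without line 20 it was 1.81, and with the kind of array as a covariate it was -0.71. Without line 9 the 6 day value was 0.59. Within the high kind, where non-induced line 9 stands without its partner, it was 0.71 ± 0.73 (SE).

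THI2.1 was lower with estradiol in both empty-vector pairs. The level was 5.54 with estradiol and 6.20 without it at 3 days, and 5.34 with and 7.40 without at 6 days. Behind the 6 day difference of -2.06, only 2 other arrays read above the non-induced 7.40, while the induced 5.34 was near the median of 5.38 over all 16. The THI2.1 levels by group ran from the single non-induced empty vector at 6 days (7.40) and the induced lines at 6 days (6.72 ± 2.8, SD, n = 3) down to the non-induced lines at 6 days (4.49 ± 0.82, SD, n = 3). Here too, neighbours that include a group of lines differed by less than the larger SD.

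JAL23 (AT2G39330), of the jacalin-related lectins, had the THI2.1 pattern most closely among genes with a symbol, with r = 0.849 over the 16 arrays (rho 0.817). Like THI2.1, it was higher with inducer in line 17 at 3 days (9.02 with, 7.48 without) and in line 9 at 6 days (9.91 with, 8.08 without), and lower in line 20 at 3 days (8.47 with, 9.03 without). ACLA-2, a subunit of ATP-citrate lyase, followed with r = 0.821 and GLC with r = 0.726. None of these 3 names returned among the first 3 on the 10 arrays of high 25S signal, where TCP15 (r = 0.841), SP1L2 and HTB4 led. Another lectin, JAL34, ran opposite to THI2.1, with r = -0.833 over the 16 arrays, ranked 13698 of 13700. On the 10 arrays of high 25S signal its r was -0.873.

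**Figure D2:**
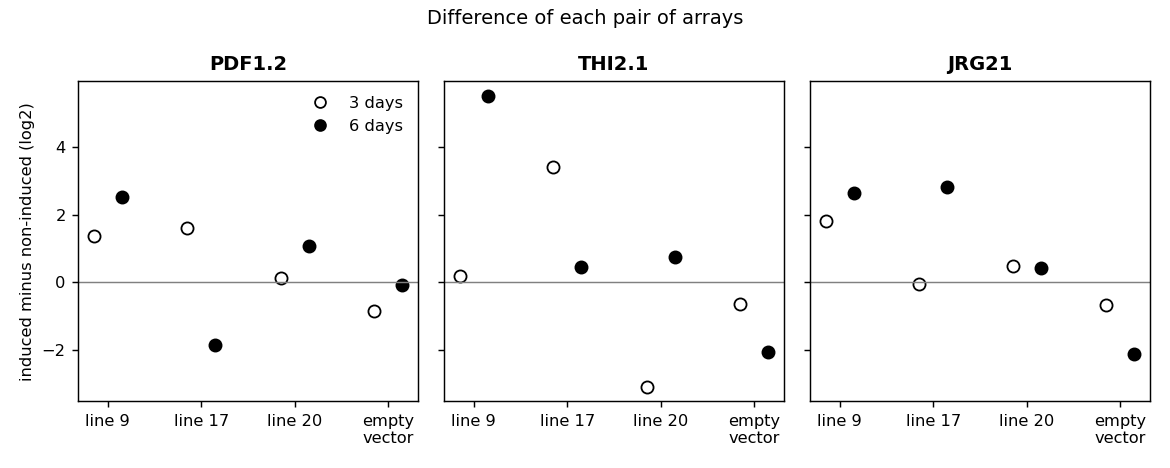
Induced minus non-induced log2 level (vertical axis) of each pair of arrays for PDF1.2, THI2.1 and JRG21, by line (horizontal axis), with open circles for 3 days and filled circles for 6 days. Values span -1.87 to 2.53 for PDF1.2, -3.10 to 5.52 for THI2.1 and -0.05 to 2.82 for JRG21 in the lines, and all 6 empty-vector circles lie below 0.

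JRG21, the jasmonate oxygenase, was the most even of the 3 without inducer. Without inducer its log2 level in the lines stayed within 5.80 to 6.41 over both days. At 3 days it was 7.62, 6.18 and 6.67 in induced lines 9, 17 and 20, against 5.80, 6.23 and 6.18 without inducer, so line 17 showed a difference of -0.05 and the groups overlapped. At 6 days it was 9.01, 8.65 and 6.83 with inducer, against 6.37, 5.83 and 6.41 without. Lines 9 and 17 were 6.23-fold and 7.06-fold higher with inducer and line 20 was 1.34-fold higher, and every induced array lay above every non-induced one. At 6 days 11.0% of all kept probe sets showed that separation, and at 3 days, when none of the 3 genes did, 12.5%.

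The mean difference of JRG21 was 0.75 ± 0.52 at 3 days and 1.96 ± 0.52 at 6 days (SE; limma adjusted p = 0.495 and 0.137). The 6 day unadjusted limma p was 0.00301, and 14.1% of probe sets had one under 0.05. The 6 day difference of line 17 came from a pair within the high kind of array, as did the smaller one of line 20. On the 10 arrays of that kind alone the 6 day difference was 1.54 ± 0.57 (SE; limma adjusted p = 0.605), and with the kind as a covariate it was 1.68 ± 0.50 (limma adjusted p = 0.244). The former fit keeps non-induced line 9 without its partner, and with line 9 left out the 6 day difference was 1.62. The 6 day difference minus the 3 day one was 1.21 ± 0.73 (SE; limma adjusted p = 1), a test that 0% of probe sets passed (1.71% at an unadjusted limma p under 0.05). In lines 17 and 20 it sets pairs of the high kind against pairs of the low kind. The 3 day difference was 0.22 without line 9 and 1.16 without line 17, and the 6 minus 3 day value was 0.38 without line 17 and 1.85 without line 20.

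Over both days JRG21 ranked 707th of 13701 by p-value, with an unadjusted limma p of 0.00346. In that comparison 2.85% of all probe sets passed and 26.4% had an unadjusted p under 0.05. Leaving out line 20, whose differences were 0.49 and 0.42, put it past the threshold (1.81 ± 0.34, SE; limma adjusted p = 0.0469), leaving out line 9 gave 0.92 ± 0.39 (limma adjusted p = 0.313) and leaving out line 17 gave 1.34 ± 0.49 (limma adjusted p = 0.465). With the kind of array as a covariate the difference was 1.08 ± 0.37 (limma adjusted p = 0.23), and with the days averaged per line it was 1.36 ± 0.37 (limma adjusted p = 0.232).

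In the empty vector JRG21, unlike in the lines at 6 days, was lower with estradiol. It read 5.90 with estradiol and 6.57 without it at 3 days, and 5.46 with and 7.58 without at 6 days. As with THI2.1, the larger 6 day difference of -2.12 (4.35-fold lower) included a high level without inducer, above the highest non-induced line array (6.41). It also included the lowest JRG21 level of all 16 arrays, the 5.46 with estradiol. The mean over both pairs was -1.40 ± 0.63 (SE; limma adjusted p = 1, unadjusted p = 0.0496), in a test that borrows its spread from the lines. There limma called 0% of probe sets (0.810% before adjustment). In the single 6 day pair 0.985% of probe sets were at least 1 log2 unit lower with estradiol and 0.153% at least 2 units lower, JRG21 and THI2.1 among them; in the 3 day pair 3.54% were at least 0.5 lower, which all 3 genes were.

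By level, the JRG21 groups ran from the induced lines at 6 days (8.16 ± 1.2, SD, n = 3) through the non-induced empty vector at 6 days (7.58), the induced lines at 3 days (6.82 ± 0.73) and the non-induced empty vector at 3 days (6.57) to the non-induced lines at 6 days (6.20 ± 0.32) and 3 days (6.07 ± 0.24). The induced empty vector was lowest, at 5.90 and 5.46. The gap below each non-induced empty-vector array, 0.76 and 0.37, was larger than the SD of the lines next to it (0.73 and 0.32); the other gaps beside a group of lines were smaller than the SD.

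The difference between the lines and the empty vector was tested directly. For JRG21 it was 2.75 ± 0.73 over both days and 4.08 ± 1.03 at 6 days (SE; limma adjusted p = 0.963 and 0.899), ranked 32nd by p-value in each; 0.00730% of probe sets, 1 in each, passed, with 3.05% and 2.86% at an unadjusted limma p under 0.05. The 6 day value rests on 1 empty-vector pair, and over both days the difference was 2.03 without that pair and 3.48 without the 3 day pair. For THI2.1 the differences were 2.56 ± 1.9 and 4.29 ± 2.7, and for PDF1.2 they were 1.28 ± 1.3 and 0.68 ± 1.9 (SE; limma adjusted p from 0.963 to 1). Without line 9 the THI2.1 value at 6 days was 2.65, and the PDF1.2 values were 0.71 over both days and -0.30 at 6 days; without line 17 the last was 1.90. The 95% interval at 6 days ran from 1.81 to 6.35 for JRG21, from -1.64 to 10.22 for THI2.1 and from -3.48 to 4.83 for PDF1.2, before any adjustment for the number of probe sets.

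Without inducer, no difference between the lines and the empty vector passed the test. Non-induced lines minus the non-induced empty vector gave -0.94 ± 0.52 for JRG21, -1.95 ± 1.3 for THI2.1 and 1.05 ± 0.94 for PDF1.2 (SE; limma adjusted p = 1 for each). The PDF1.2 value was 1.86 without line 9 and 0.58 without line 20. Here 0% of probe sets passed in limma (4.85% at an unadjusted p under 0.05).

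**Figure D3:**
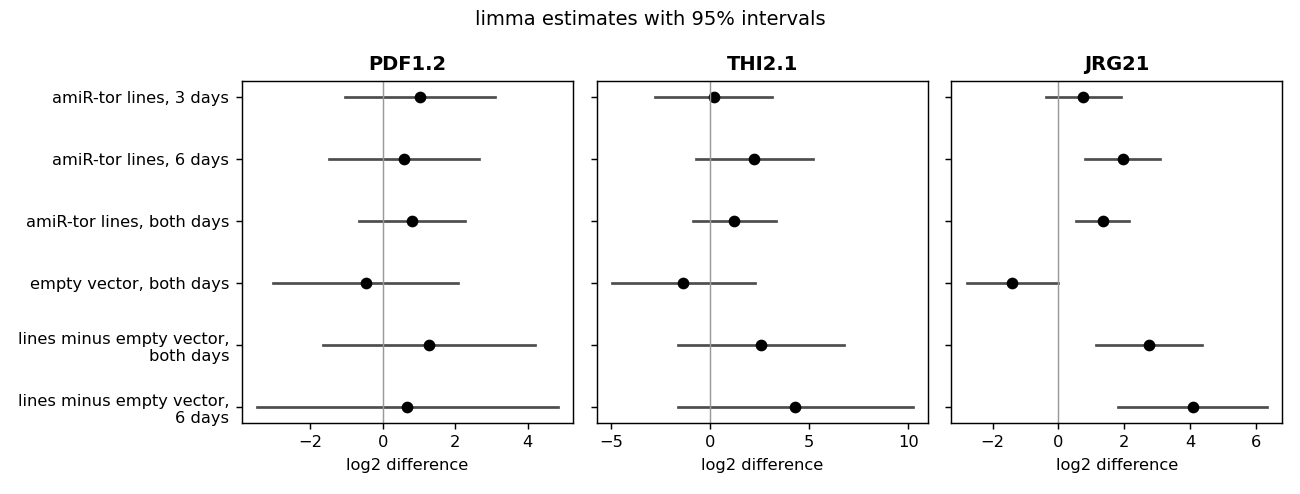
limma estimates (points) with unadjusted 95% intervals (bars) for PDF1.2, THI2.1 and JRG21; the horizontal axes give log2 differences, each on its own scale, and the rows are the comparisons. For JRG21 the interval at 6 days runs from 0.82 to 3.10 in the lines, and for PDF1.2 and THI2.1 every interval spans 0.

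Each of the 3 genes was higher with inducer in 5 of the 6 amiR-tor pairs, as were 26.3% of all probe sets in at least 5 (11.6% in all 6), and each was lower in both empty-vector pairs, as were 18.5%; 3.47% met both conditions. The pair with the other sign was a different one for each gene: line 17 at 6 days for PDF1.2, line 20 at 3 days for THI2.1 and line 17 at 3 days for JRG21. Over the 16 arrays r was 0.053 between PDF1.2 and THI2.1, -0.018 between PDF1.2 and JRG21, and 0.422 between THI2.1 and JRG21. Over the 8 pair differences r was 0.64 (rho 0.619) between PDF1.2 and THI2.1, 0.148 between PDF1.2 and JRG21, and 0.501 between THI2.1 and JRG21. On the 10 arrays of high 25S signal the values were -0.082, -0.003 and 0.18 in the same order of pairs. The genes were chosen with results of these data known, so these counts are a description. In whole seedlings fewer cells of a type and less RNA per cell cannot be told apart.

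The nearest neighbours of JRG21 included another enzyme of its own family. JOX4 (AT2G38240), also an oxygenase that inactivates jasmonate, ranked 4 among 13700 probe sets by likeness to JRG21 over the 16 arrays (r = 0.909), and r was 0.881 on the 10 arrays of high 25S signal. JOX4 read 5.44, 4.22 and 4.79 in induced lines 9, 17 and 20 at 3 days, against 3.76, 3.84 and 3.84 without inducer. At 6 days it read 6.89, 8.07 and 5.18 with inducer, against 4.03, 3.86 and 3.78 without. At each day every induced line array was above every non-induced line array, as for 12.5% of all probe sets at 3 days and 11.0% at 6 days. Line 17 with inducer at 6 days was the highest of all. No fold is given because most levels without inducer lay under the dim boundary.

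JOX4 rose over both days by 1.91 ± 0.40 (SE, limma adjusted p = 0.0354). Its levels without inducer lay at or near the dim boundary, where differences are compressed. The SD of the non-induced lines was also small, 0.05 at 3 days and 0.13 at 6 days, against 0.61 and 1.45 with inducer. The fit pools these spreads. Without inducer only line 9 (4.03) and the empty vector (4.78), both at 6 days, reached the boundary of 4. The probe set thus passed the dim filter only through its induced arrays, which the p-value does not allow for. With the filter at log2 6 it was not kept. The call was lost without line 9 (limma adjusted p = 0.24), without line 17 (0.465), with the kind of array as a covariate (0.113), with the days averaged per line (0.135) and without the dim filter (0.111), while the difference in these settings was 1.72 to 1.91. In the empty vector JOX4 read 4.13 with and 3.84 without estradiol at 3 days, and 3.82 with and 4.78 without at 6 days. The non-induced empty vector at 6 days was thus the highest non-induced array for JOX4 as it was for JRG21.

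Another member of the family, JOX2 (AT5G05600), had positive differences in all 6 pairs, as did 11.6% of all probe sets. They were 0.70 and 1.46 in line 9, whose pairs mix the kinds of array, and 0.08 to 0.56 in lines 17 and 20. The JOX2 mean was 0.61 ± 0.21 (SE; limma adjusted p = 0.121). JOX1 was at the floor of 2.12 on every array. Among genes that the annotation lists by a symbol (JOX4 is listed by its locus only), the closest to JRG21 over 16 arrays were RD2 (AT2G21620, r = 0.911), CYP71B6 (AT2G24180, r = 0.889), a cytochrome P450, and ALPHA-VPE (AT2G25940, r = 0.847), a vacuolar processing protease. CYP71B6 and ALPHA-VPE were again among the first 3 on the 10 arrays of high 25S signal, with r = 0.892 and 0.930.

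**Figure D4:**
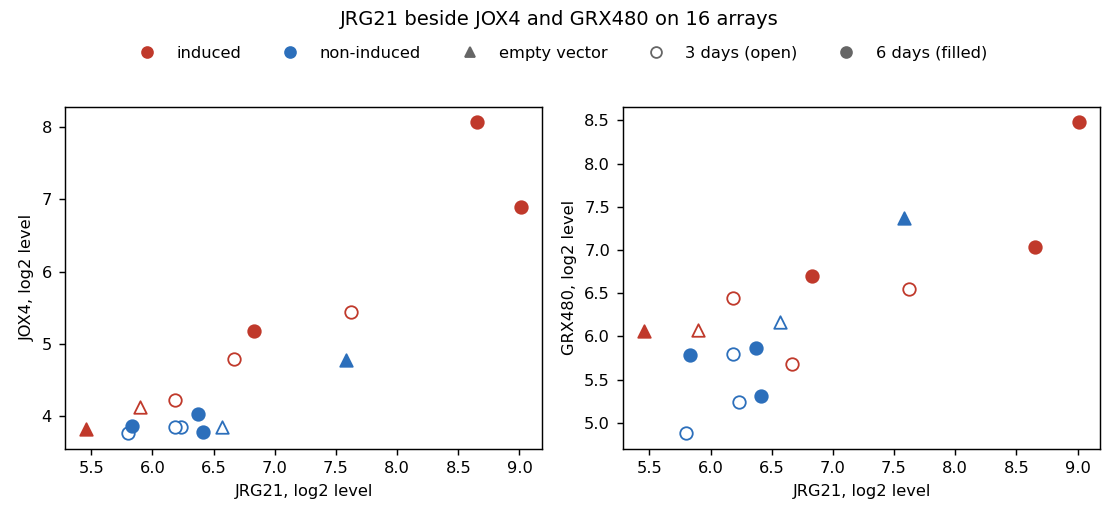
Log2 level of JRG21 (horizontal axes) against JOX4 (left) and GRX480 (right) on the 16 arrays; red is induced, blue non-induced, triangles are empty vector, and open and filled symbols are 3 and 6 days. The induced line 9 and 17 arrays at 6 days lie highest for JRG21, at 9.01 and 8.65, and the non-induced empty vector at 6 days follows at 7.58 behind the induced line 9 array of 3 days at 7.62.

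Few other genes of the jasmonate system had a named probe set. Of 96 other loci on lists of jasmonate synthesis, turnover, signalling and targets, of related defence peptides and of ethylene and salicylate defence, 19 had a named probe set and 16 were kept. Of these 16, 2 rose and 0 fell over both days in limma, where 2.22% of all probe sets rose and 0.628% fell. The 2 include JOX4, which passed the dim filter only through its induced arrays, so the shares are not a like comparison. Each of the 2 calls was lost in several other settings. Their median difference was 0.13, against 0.03 over all 13701 probe sets.

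GRX480 (AT1G28480), a glutaredoxin known from salicylate responses and for damping PDF1.2 when in excess, was the other gene that rose. Its level at 6 days was 8.48, 7.04 and 6.70 in induced lines 9, 17 and 20, against 5.87, 5.78 and 5.31 without inducer. These groups did not overlap, as for 11.0% of all probe sets. At 3 days the GRX480 level was 6.55, 6.44 and 5.68, against 4.88, 5.24 and 5.80. Over both days it rose by 1.34 ± 0.31 (SE; limma adjusted p = 0.0461), with r = 0.815 to JRG21 and 0.693 to THI2.1 over 16 arrays, and 0.738 and 0.48 on the 10 of high 25S signal. That call was lost with quantile normalization (limma adjusted p = 0.0517), with the kind of array as a covariate (0.107), with the days averaged (0.193), without the dim filter (0.126), without line 9 (0.174) and without line 17 (0.465), with differences of 0.93 to 1.39 in these settings. In the empty vector GRX480 read 6.07 with and 6.17 without estradiol at 3 days, and 6.06 with and 7.37 without at 6 days.

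OPCL1 (AT1G20510), a ligase that prepares jasmonate precursors for beta-oxidation, was the 1 gene of 16 synthesis loci with a named probe set. It differed by 0.36 ± 0.14 (SE, limma adjusted p = 0.146). All 6 line pairs were higher with inducer, by 0.02 to 0.78, as for 11.6% of all probe sets. OPCL1 was also higher with estradiol in the empty vector, by 0.39 at 3 days and 0.04 at 6 days. MYC3 and MYC4, partners of MYC2 in the jasmonate response, differed by 0.09 ± 0.18 and 0.18 ± 0.22 (SE), and EIN3, a transcription factor of the ethylene branch, by -0.05 ± 0.18 (SE). The lectin JAL34, from the list of wound targets, differed by -0.20 ± 0.14. None of these 5 genes passed in limma.

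Other defensins and thionins differed in both directions. Of 7 kept genes on that list, 0 passed in limma over both days, when 2.85% of all probe sets did, and 2 had a positive difference, as did 54.0% of all probe sets. PDF2.5 had the largest positive value, 1.07 ± 0.32 (SE; limma adjusted p = 0.0849), with differences of 2.13 and 2.31 in the mixed-kind pairs of line 9 and 0.01 to 1.29 in lines 17 and 20; it was also higher with estradiol in the empty vector, by 0.37 and 1.02. PDF1.4 had the largest negative value, -0.70 ± 0.38 (SE). It was also lower with estradiol in the empty vector, with differences of -1.19 at 3 days and -0.80 at 6 days. PDF2.2 (-0.64 ± 0.22) was lower in all 6 pairs, as were 7.15% of all probe sets. Its empty-vector differences were -0.01 at 3 days and 0.21 at 6 days. THI2.2 and THI2.3, relatives of THI2.1, differed by -0.31 ± 0.39 and -0.15 ± 0.37 (SE).

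**Figure D5:**
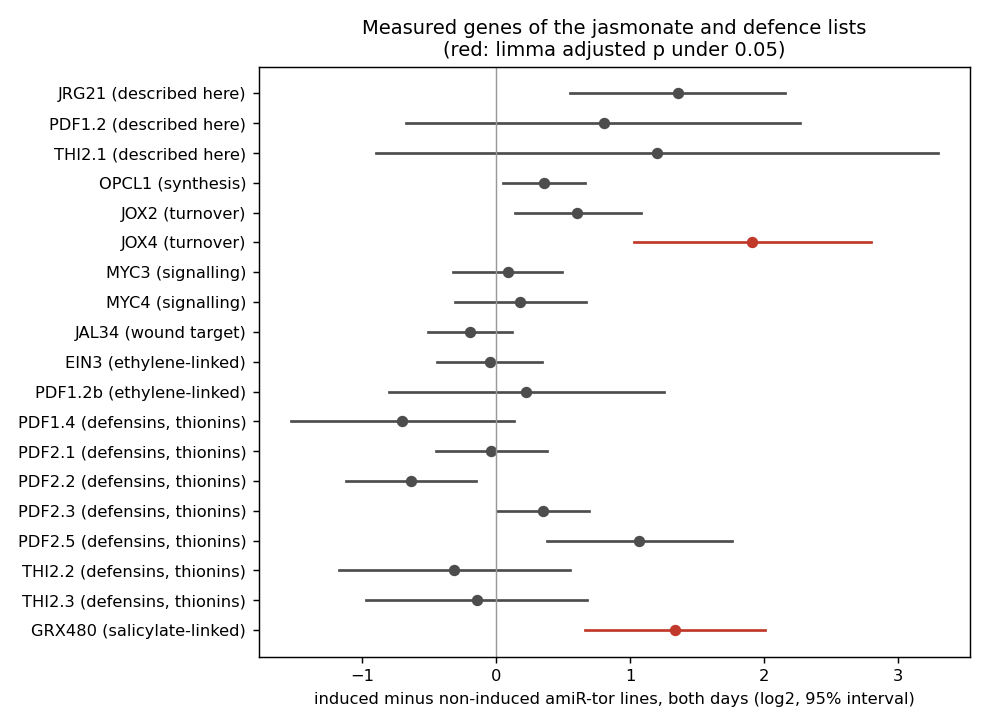
Induced minus non-induced log2 difference of the lines across the 2 days (horizontal axis; points are limma estimates and bars unadjusted 95% intervals) for PDF1.2, THI2.1, JRG21 and the 16 other measured genes of the lists (rows). JOX4 at 1.91 and GRX480 at 1.34, in red, are the 2 that passed, each call being lost in several other settings. JOX4 passed the dim filter only through its induced arrays. THI2.1 has the widest interval, -0.90 to 3.30.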

How the data were processed

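The deposited log2 level of each probe set comes from GCRMA, run by the authors, per the submitters' processing notes; it subtracts background, normalizes arrays together and combines probes. Its settings are not known here. Values ran from 2.12 to 15.32. The fit omitted 64 control and 9045 dim probe sets. The number of arrays limits the precision.

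Probe sets were named through the platform annotation and the RefSeq table of the TAIR10.1 assembly: of 22746, 13513 were listed with 1 gene, 503 with several and 8730 not at all. Coordinates and sequences are not given.

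A limma 3.58.1 model (R 4.3.3) took in all 16 arrays (1 mean per group, 8 residual degrees of freedom), with Benjamini-Hochberg adjustment over the 13701 kept probe sets; the procedure was tested on simulated data. An empty-vector group has 1 array, assumed to vary like the others; single empty-vector pairs are values with no test. The 3 genes, the lists (each named gene being any list member on a kept probe set), the boundary between kinds of array (a 25S log2 value of 9) and the alternatives were chosen with earlier results of these data known. Genes of like pattern were the 3 named genes with the highest Pearson correlation to each gene; JOX4 was compared as a list member.

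Same-line arrays come from 1 transgenic line, which pairs them; their deviations from group means correlated between -0.63 and 0.45 for line 9, -0.16 and 0.17 for line 17, and -0.15 and 0.52 for line 20. Alternatives were a block for the line, other filters, quantile normalization, the kind of array as a covariate or alone, each line left out, days averaged per line and each empty-vector pair left out. No 2 arrays looked like copies (highest correlation 0.992).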

Additional observations from a re-analysis of the deposited data

Results flagged for a closer look

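In 3 cases every amiR-tor line differed one way at a given day and the single empty-vector pair the other way. The share of all probe sets with such a pattern was not counted, so the 3 cases are a description only. At 3 days PDF1.2 was higher with inducer in lines 9, 17 and 20 (1.36, 1.61 and 0.11), while the empty vector differed by -0.85; this contrast was not tested at that day. At 6 days THI2.1 was higher in the 3 lines (5.52, 0.44 and 0.73), while the empty vector differed by -2.06. At 6 days JRG21 was higher in the 3 lines (2.64, 2.82 and 0.42), while the empty vector differed by -2.12. For both genes at 6 days the test of the difference gave limma adjusted p = 1 for THI2.1 and 0.899 for JRG21.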

How the results depend on the processing

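For the 3 genes, 222 refits over 8 comparisons kept direction and side of the threshold in 215; 1 passed (JRG21 over both days without line 20, 1.81; range without 1 line 0.92 to 1.81) and 6 changed sign. THI2.1 at 3 days was -0.71 with the 25S kind of array as a covariate, -0.068 on arrays of low 25S signal and -1.46 to 1.81 without 1 line. The fit on low 25S signal keeps induced line 9 without its partner, and with line 9 left out the value was 0.16. Without 1 line PDF1.2 was -0.40 to 1.80 at 6 days, -0.30 to 1.90 for lines minus empty vector at 6 days and -1.26 to 1.07 for 6 minus 3 days. Of the other genes, over both days and without 1 line, EIN3 was -0.207 to 0.045, PDF1.2b -0.21 to 0.62, PDF2.1 -0.265 to 0.29, THI2.3 -0.637 to 0.237 and MYC3 -0.045 to 0.33. The cause of these changes was not tested.

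Counts of probe sets past the threshold (limma) moved more. At 3 days, 0 became 4 with no dim filter and 1 with a filter at log2 6. At 6 days, 63 became 8 with no filter, 30 with the 25S covariate, 0 on arrays of high 25S signal (1086 at an unadjusted p under 0.05) and 1 to 55 without 1 line (1 without line 17, 9 without line 9). Over both days, 390 became 88 with no filter, 61 with the covariate, 6 with days averaged and 1 to 379 without 1 line (1 without line 17, 6 without line 9). With no filter the empty-vector comparison had 297, lines minus empty vector 274 over both days and 143 at 6 days, and non-induced lines minus empty vector 215 (0 to 33 without 1 line). With the line as a replicate block, lines minus empty vector had 0 over both days (558 at an unadjusted p under 0.05) and 4 at 6 days, and the block changed no call of a named gene. That comparison also had 0 over both days with the covariate and without either empty-vector pair or any 1 line (0 to 0), and at 6 days 0 with the covariate and on arrays of high 25S signal, and 0 to 2 without 1 line.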

Other observations

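JRG21 and THI2.1 were among the probe sets with the most negative difference in the empty-vector pair at 6 days. Of 13701 probe sets, 21 (0.153%) were at least 2 log2 units lower with estradiol there; JRG21 was 18th and THI2.1 20th by size. Of the 21, 13 had a locus and 13 had a positive mean over the amiR-tor pairs, as did 54.0% of all probe sets. In the 3 day pair 13 were also lower, for which the share of all probe sets was not counted. They included CCOAMT, a methyltransferase of the phenylpropanoid pathway (-3.07 at 6 days, 0.56 at 3 days), PRX52, a peroxidase (-2.01 at 6 days, -1.97 at 3 days), and AT1G26390, AT1G26410 and AT1G26380, of the berberine bridge enzyme family (-2.64, -2.64 and -2.29 at 6 days; 0.71, -1.53 and -0.29 at 3 days). Over the amiR-tor pairs AT1G26390 was higher with inducer in 6 of 6 (mean 1.41), as were 11.6% of all probe sets. AT1G26380 was higher in 4 (mean 0.45) and AT1G26410 in 1 (mean -0.63). CCOAMT was higher in 0 of the 6 (mean -1.60) and PRX52 in 2 (mean -1.07). These genes were chosen after their values were seen, and a single pair allows no test.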
